A study of Homo sapiens with 4 samples.

Results

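F-box proteins are the subunits that choose the substrate in SCF ubiquitin ligases. In these ligases CUL1 is the scaffold, RBX1 brings the ubiquitin-carrying enzyme, and SKP1 links the scaffold to the F-box of a receptor. The receptors are sorted by the part that binds the substrate: leucine-rich repeats in FBXL proteins, WD40 repeats in FBXW proteins, and other folds in FBXO proteins. Several of them set the timing of the cell cycle by marking cyclins and inhibitors of cyclin-dependent kinases for the proteasome.

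The F-box genes were taken by name from the gene column of the sgRNA table. A gene was a member when its symbol began with FBXL, FBXO or FBXW followed by a digit, or when it was SKP2, CCNF or BTRC. This gave 67 of 19112 gene symbols: 19 with leucine-rich repeats including SKP2, 38 of the FBXO kind including CCNF, and 10 with WD40 repeats including BTRC. Each was targeted by 4 sgRNAs, 268 in all. The rule used names only, and it was set with earlier results of these data known.

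The screen asked which knockouts let A549 cells, an established line from a human lung adenocarcinoma, live with HQ461, a toxic compound that the study describes as a molecular glue between CDK12 and the DDB1 subunit of CUL4 ligases. Cells carrying the Brunello knockout library, a lentiviral pool of Cas9 and sgRNAs, were grown for 3 weeks in 4 µM HQ461 or in 0.1% (v/v) of its solvent DMSO. The labels name 2 biological replicates of each treatment, and the table holds 1 column of sgRNA counts per treatment, so every value below is the authors' value for a treatment, without a spread between replicates. The counts come from genomic DNA, so the cell type could not be checked against marker expression.

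The column of HQ461 held 16127620 counts and that of DMSO 14428845, with a median of 111 counts per sgRNA in HQ461 and 153 in DMSO. Counts were divided by size factors of 0.833 for HQ461 and 1.20 for DMSO, so changes are relative to the median sgRNA. The value of an sgRNA is the log2 ratio of its normalized count plus 1 in HQ461 over that in DMSO, and the value of a gene is the median over its sgRNAs. Values past 1 on either side, a 2-fold change, are counted below as higher or lower in HQ461. No test of the treatment is possible with 1 column each, and the sgRNAs of a gene are not replicates of the treatment.

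The F-box sgRNAs took 0.324% of the counts in HQ461 and 0.338% in DMSO, with 95% exact binomial intervals of 0.321 to 0.327% and 0.335 to 0.341%. Intervals of this kind cover counting error only, since reads from PCR are not independent molecules. The median normalized count of the F-box sgRNAs was 124 in HQ461 and 126 in DMSO, and that of all targeting sgRNAs was 132 in HQ461 and 127 in DMSO. Under 30 normalized counts lay 32 F-box sgRNAs (11.9%) in HQ461 and 11 (4.10%) in DMSO. In HQ461 2 F-box sgRNAs had no count, and in DMSO every one was seen. The share of all targeting sgRNAs without a count is not given here.

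The values of the F-box genes were spread about as widely as those of the library. The median over the 67 genes was -0.11, against -0.02 over all 19111 genes with a value. The 95% interval of the F-box median, from the order of the values, was -0.39 to 0.07. That interval takes the genes as independent draws, although some lie side by side, and it holds no spread between replicates. It is therefore not read as a test of the F-box genes against the library. The values of the F-box genes had an SD of 0.82, and those of all genes 0.80. In the interval from -0.5 to 0.5 lay 34 of the 67 (50.7%), beside 54.4% of all genes.

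Higher in HQ461 were 6 F-box genes (8.96%), FBXO17, FBXO24, FBXL20, FBXO38, FBXL6 and FBXO39, where 9.01% of all genes passed the same limit. Lower were another 6 (8.96%), FBXO42, FBXW7, FBXO11, FBXL18, SKP2 and FBXO31, beside 7.69% of all genes. Both shares lie near those of the library. Scaling by total counts, which moves the median over all genes to -0.70, gave 1 F-box gene higher (FBXO17) and 28 lower, where 2.72% of all genes were higher and 32.1% lower.

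All 4 sgRNAs were above 0 for 7 F-box genes (10.4%), where 10.3% of all genes had every sgRNA above 0, and all were below 0 for 9 (13.4%), where the share of all genes was 9.18%. With the 2-fold limit on the median added, 5 F-box genes were higher with every sgRNA (FBXO17, FBXL20, FBXO38, FBXL6 and FBXO39), beside 5.16% of all genes. Another 4 were lower with every sgRNA (FBXO42, FBXW7, FBXL18 and SKP2), beside 3.53% of all genes. The remaining 51 F-box genes had sgRNAs on both sides of 0.

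More F-box sgRNAs lay below the range of the non-targeting controls than above it, as did more of all targeting sgRNAs. The limits of that range, -1.67 and 2.92, are not equally far from no change. The most extreme F-box log2 ratios were alike in size, at 4.64 for an sgRNA of FBXO46 and -4.60 for an sgRNA of FBXW7 without a count in HQ461. Below the 1st percentile of the non-targeting controls, -1.67, lay 32 of the 268 sgRNAs (11.9%), beside 7.53% of all targeting sgRNAs. Above their 99th percentile, 2.92, lay 4 (1.49%), beside 2.44%. The 32 low sgRNAs belonged to 21 genes, of which 7 had 2 and FBXO42 and FBXW7 had 3. The 4 high sgRNAs belonged to 4 genes, FBXO46, FBXO47, FBXO31 and FBXO16. The shares of all genes with as many low or high sgRNAs are not given here, so these gene counts cannot be called unusual. Controls had higher counts, with a median of 443 in HQ461 and 437 in DMSO. Their log2 ratios had an SD of 0.87, against 1.37 for F-box sgRNAs and 1.33 for all targeting ones. The part of counting error in this difference was not tested.

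**Figure D1:**
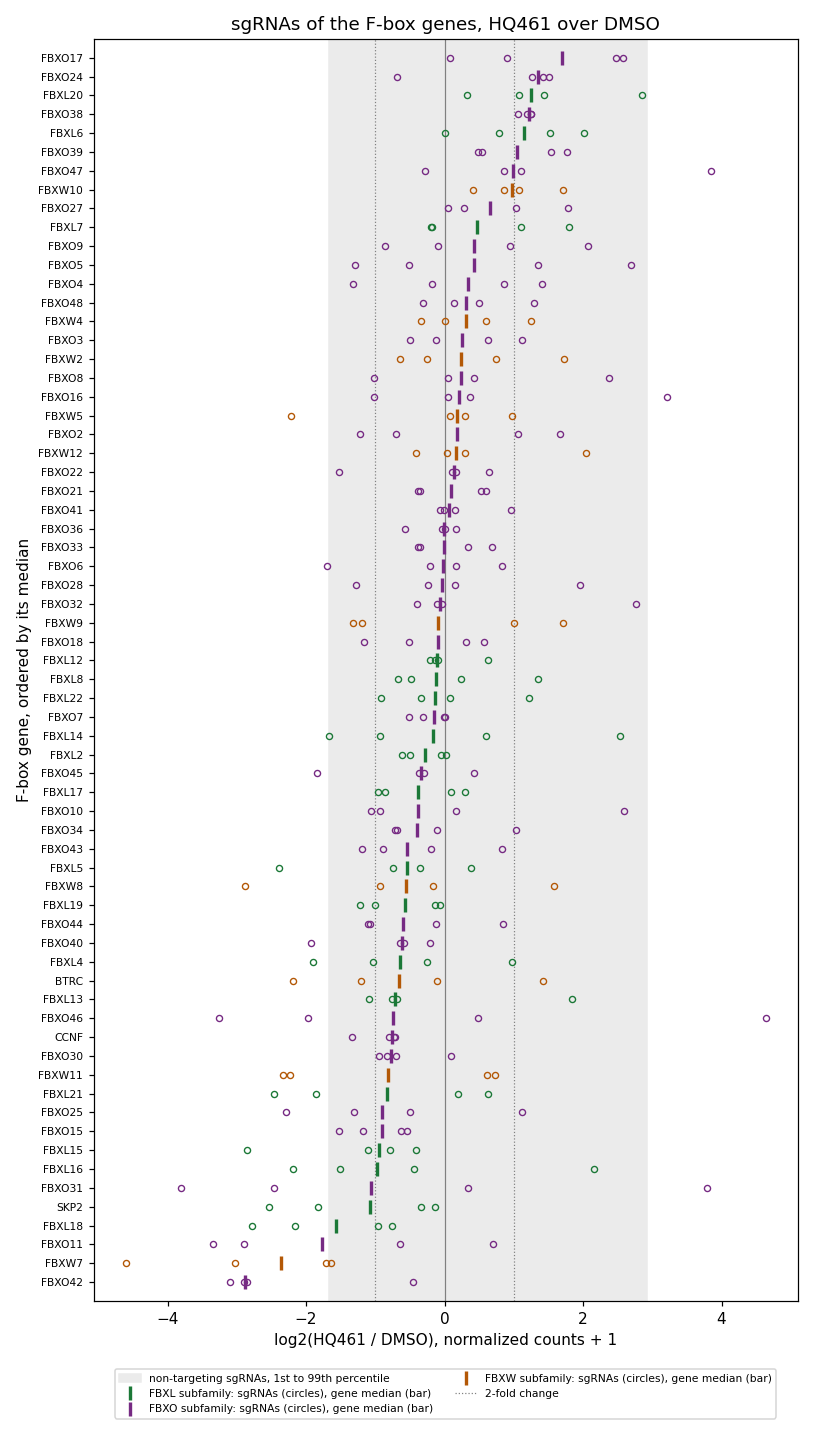
Log2 ratio of normalized counts, HQ461 over DMSO, of every sgRNA (circles) and the median (bars) of the F-box genes, all but 1 of the 67, ordered by median and coloured by subfamily. The grey band runs from the 1st to the 99th percentile of the non-targeting sgRNAs (-1.67 to 2.92) and dotted lines mark a 2-fold change: 6 medians lie above it and 6 below.

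By subfamily, the median was -0.38 over the 19 FBXL genes, with 2 higher and 2 lower, -0.02 over the 38 FBXO genes, with 4 higher and 3 lower, and 0.03 over the 10 FBXW genes, with 0 higher and 1 lower. The 2 FBXL genes on either side are 10.5% each, near the 9.01% and 7.69% of all genes. In the FBXL genes 15 of 19 values were below 0 (78.9%, beside 51.3% of all genes). Low sgRNAs, those under the 1st percentile of the controls, made up 14.5% of FBXL, 8.55% of FBXO and 20% of FBXW sgRNAs, and these shares rest on 11, 13 and 8 sgRNAs.

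The 13 receptors listed here under the cell cycle had a lower median than the F-box genes as a whole. The list was drawn up by hand, with earlier results of these data known. It holds 4 of the 6 lower F-box genes, so its median is not read as a trait of cell cycle receptors. Over the 13 genes of this list the median was -0.72, with 10 values below 0, 0 higher and 4 lower (30.8%, beside 7.69% of all genes). Their sgRNAs also had fewer counts in DMSO: the median normalized count was 68.4 in HQ461 and 92.9 in DMSO. The part of the DMSO level in the shift was not tested. Low sgRNAs were 12 of 52 (23.1%). Of the 4 lower genes, FBXW7 stayed past the limit in all 12 alternative settings, SKP2 and FBXO11 in 9 and FBXO31 in 8.

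FBXW7, the receptor of cyclin E, MYC, MCL1 and Notch, was the second lowest F-box gene at -2.37. Its sgRNAs had normalized counts of 28.8, 9.60, 0 and 1.20 in HQ461, against 96.6, 85.0, 23.3 and 5.83 in DMSO. All 4 were lower in HQ461, and only 2 of them had 30 or more normalized counts in DMSO. For the sgRNA with no count in HQ461 a floor of 3 counts gives at least 6.48-fold lower, and with that bound the gene's median is -2.20. Between 1 count in HQ461 and 7 in DMSO, the log2 ratio of the least abundant sgRNA, -1.63, has a counting interval of -7.77 to 0.68. The ratio of the summed counts was -2.41 (95% counting interval -2.98 to -1.88). FBXW7 was 86th from the bottom of all genes.

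SKP2, which with its cofactor CKS1B marks the kinase inhibitor p27 (CDKN1B), had a median of -1.08. In HQ461 the sgRNAs of SKP2 had 76.8, 54.0, 13.2 and 4.80 normalized counts, against 85.0, 68.3, 49.1 and 32.5 in DMSO. The first pair lay close together in the 2 treatments, at log2 ratios of -0.14 and -0.33, while the other pair lay below the 1st percentile of the controls. The value of SKP2 therefore lay between 2 groups of its own sgRNAs, and its summed counts gave -0.66.

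FBXO11, a receptor of BCL6 and of DTL, stood at -1.77 with counts of 235, 76.8, 7.20 and 0 in HQ461, against 144, 121, 60.0 and 9.16 in DMSO. The most abundant sgRNA was higher in HQ461, and the last, at 0 in HQ461, was at least 2.54-fold lower against a floor of 3 counts. With that bound the median was -0.997, short of the 2-fold limit, and the log2 ratio of the summed counts was -0.07. FBXO31, a receptor of cyclin D1, had a median of -1.06 made of sgRNAs that moved opposite ways: 161, 20.4, 1028 and 2.40 in HQ461, against 127, 117, 73.3 and 46.7 in DMSO. One sgRNA was far above the controls at 3.79 and another was far below at -3.81, and the log2 ratio of the summed counts was 1.73.

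CCNF (cyclin F), a receptor that acts on RRM2 and the centriole protein CCP110, had every sgRNA lower without passing the 2-fold limit. Its normalized counts were 196, 116, 61.2 and 32.4 in HQ461, against 342, 295, 101 and 54.1 in DMSO. The ratios were close to each other, from -1.33 to -0.71, with a median of -0.76.

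The paralogs BTRC and FBXW11 are the receptors of phosphorylated beta-catenin, NFKBIA, WEE1 and CDC25A. BTRC had a median of -0.66 and counts of 340, 44.4, 528 and 57.6 in HQ461, against 366, 207, 196 and 134 in DMSO. FBXW11 had a median of -0.81 and counts of 14.4, 8.40, 40.8 and 34.8 in HQ461, against 76.6, 43.3, 24.2 and 22.5 in DMSO. Each had sgRNAs on both sides of 0, and FBXW11 split 2 and 2. With only the sgRNAs of at least 30 normalized counts in DMSO, FBXW11 passed the limit, at -2.29.

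FBXO5 (EMI1), an inhibitor of the anaphase-promoting complex rather than a typical receptor, had a value of 0.42. Among its sgRNAs 1 dominated: 1970, 43.2, 86.4 and 10.8 in HQ461, against 305, 107, 33.3 and 15.8 in DMSO. The ratios ran from -1.29 to 2.69, and the sign of the gene's value turned under total-count scaling (-0.24). With only the sgRNAs of at least 30 normalized counts in DMSO it was 1.35, past the limit. The other receptors of this list lay between -0.72 (FBXL13) and 0.47 (FBXL7).

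The lowest F-box gene was outside that list. FBXO42, a receptor with Kelch repeats, had a median of -2.88, 32nd from the bottom of all genes. In HQ461 it had 127, 14.4, 14.4 and 7.20 normalized counts, against 175, 113, 111 and 69.1 in DMSO. All 4 sgRNAs were lower in HQ461, and 3 of them, between -3.10 and -2.86, lay below all but 0.100% of the controls. The remaining sgRNA changed little, at -0.46. The log2 ratio of the summed counts was -1.52 (95% counting interval -1.80 to -1.25). On GRCh38 the gene lies at chr1:16246840-16352480 on the minus strand, where the 20 nearest other genes had a median of -0.25.

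FBXL18, a receptor that acts on another F-box protein, FBXL7, was lower with every sgRNA, at a median of -1.56. The counts were 120.0, 72.0, 8.40 and 7.20 in HQ461, against 235, 122, 63.3 and 35.8 in DMSO. The less abundant pair had lower ratios than the more abundant pair, as in SKP2. FBXL7 itself stood at 0.47.

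Just short of the limit on the low side were FBXL16 at -0.98 and FBXL15, a receptor of the ligase SMURF1, at -0.95, followed by FBXO15 and FBXO25, both at -0.90. FBXL15 had every sgRNA lower, with 70.8, 48.0, 27.6 and 7.20 in HQ461 against 94.1, 83.3, 60.8 and 58.3 in DMSO. FBXL16 did not: its counts were 187, 85.2, 604 and 24.0 in HQ461, against 256, 244, 135 and 113 in DMSO, so 1 of the 4 was clearly higher.

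**Figure D2:**
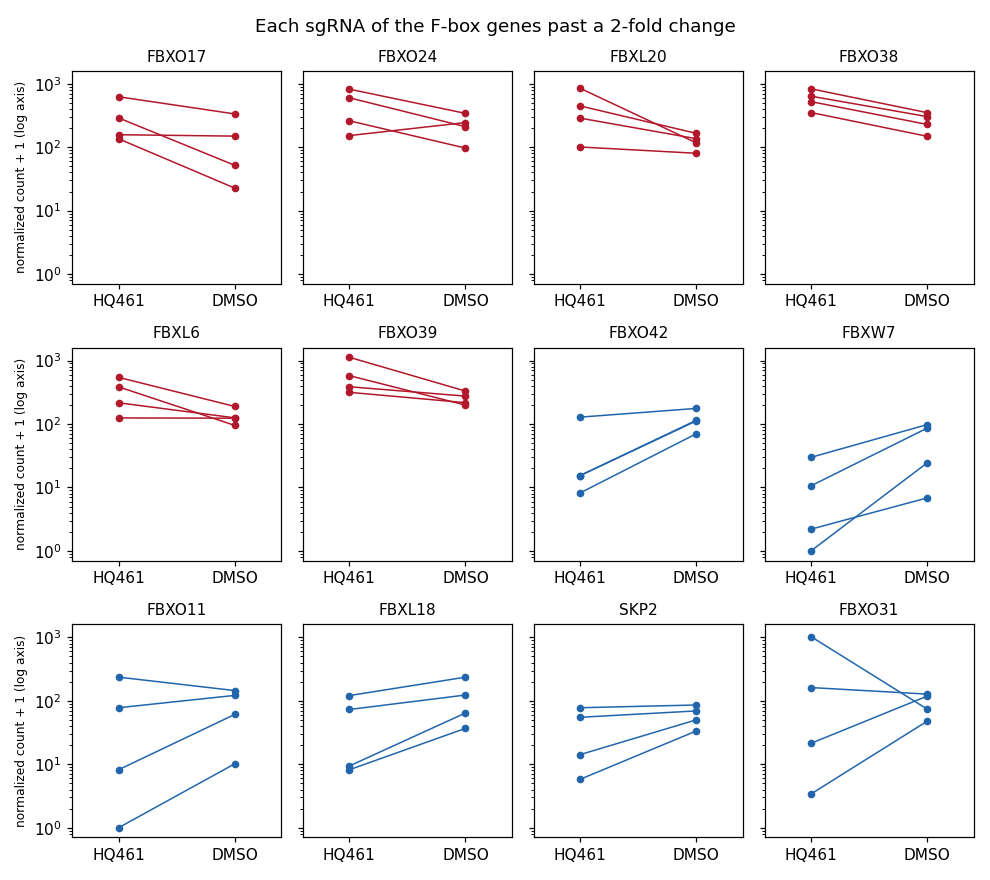
Normalized sgRNA counts plus 1 (log axis) in HQ461 (left in each panel) and DMSO (right) of the 12 F-box genes past a 2-fold change, higher in red and lower in blue, with a line per sgRNA. The 4 lines of FBXO38 run almost parallel, whereas those of FBXO31 cross, 1 sgRNA being at 1028 in HQ461 and 73.3 in DMSO.

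Among the genes higher in HQ461, FBXO38 was the one whose sgRNAs were most alike. Its normalized counts were 831, 635, 521 and 351 in HQ461, against 349, 302, 227 and 147 in DMSO. The 4 log2 ratios lay between 1.07 and 1.25, with a median of 1.22, and each exceeded 89.4 to 91.7% of the controls. FBXO38 is a receptor described as acting on a checkpoint receptor of T cells. It lies at chr5:148383935-148442836 (GRCh38, plus strand), among neighbours with a median of -0.18.

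FBXO17, a member of the sugar-binding group that recognises glycoproteins, had the highest value, 1.69. Its sgRNAs had 622, 156, 288 and 134 normalized counts in HQ461, against 333, 148, 50.8 and 21.7 in DMSO. The 2 sgRNAs with the fewest counts in DMSO had ratios of 2.48 and 2.58, whereas the second was at 0.07. The summed counts gave 1.12 (95% counting interval 0.97 to 1.26), and with sgRNAs under 30 normalized counts in DMSO left out the median was 0.90.

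FBXO24 stood at 1.35, with 819, 151, 599 and 259 in HQ461 against 340, 243, 209 and 95.8 in DMSO. Of its sgRNAs 3 were more than 2-fold higher and 1 was lower, at -0.68. FBXL6 stood at 1.15, with 543, 215, 124 and 384 in HQ461 against 188, 124, 122 and 94.1 in DMSO, none of them lower.

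The other 2 higher genes, FBXL20 and FBXO39, lie on chromosome 17, where the 1079 other genes of that chromosome had a median of 0.97. FBXL20, known in mouse synapses as a regulator of vesicle release, had a median of 1.26 from 445, 286, 845 and 99.6 in HQ461 against 164, 135, 116 and 79.1 in DMSO. FBXO39 had 1.04 from 1125, 385, 315 and 577 in HQ461 against 329, 274, 216 and 197 in DMSO. Both had every sgRNA higher. The 20 nearest other genes had a median of 1.72 at FBXL20 and 0.75 at FBXO39.

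The 2 genes just short of the limit on the high side, FBXO47 at 0.98 and FBXW10 at 0.97, also lie on chromosome 17 and complete its 4 F-box genes. FBXO47, needed for meiosis in mice, had 85.2, 204, 78.0 and 303 in HQ461 against 104, 94.1, 42.5 and 19.99 in DMSO, with 1 sgRNA at 3.85 above the controls. FBXW10 had 517, 789, 657 and 1136 in HQ461 against 391, 372, 362 and 346 in DMSO, and was the F-box gene with the most counts in DMSO. Its neighbours had a median of 0.83 and those of FBXO47 1.64. FBXW10 has a close relative on the same chromosome, so its sgRNAs may match more than one place, which was not checked here.

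Set against their neighbours, the 4 genes of chromosome 17 did not stand out together: FBXL20 and FBXO47 lay below the median of the 20 genes around them, FBXO39 and FBXW10 above it. Outside chromosome 17, 4 F-box genes were higher (FBXO17, FBXO24, FBXO38 and FBXL6) of 63 (6.35%). This is near the 5.69% of all genes outside chromosome 17 and the proximal long arm of chromosome 11. Across all 67 the value of a gene and the median of its neighbours had a Pearson correlation of 0.40 and a Spearman correlation of 0.21, and without chromosome 17 these were 0.16 and 0.07 (n = 63). Points share the libraries, and genes that lie side by side share neighbours. The only F-box gene of chromosome 11, FBXO3, lies on its short arm and had 0.25.

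**Figure D3:**
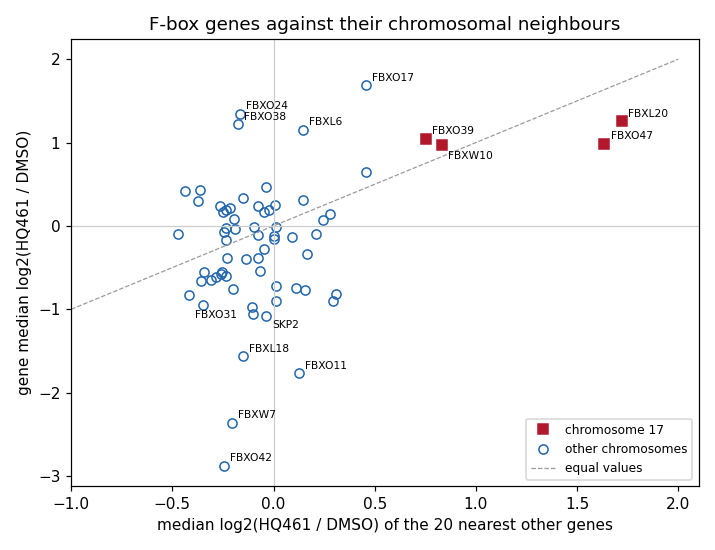
Gene value (vertical axis, log2 HQ461 over DMSO) of the 67 F-box genes against the median of the 20 nearest other genes (horizontal axis, same unit), with the line of equal values. The 4 genes of chromosome 17 (red squares) have neighbours at 0.75 to 1.72, and the lowest genes, FBXO42 and FBXW7, have neighbours near 0.

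F-box genes that lie side by side had both like and unlike values. FBXO27, also of the sugar-binding group, lies 15.0 kb from FBXO17 on chromosome 19 and had every sgRNA higher, with a median of 0.65 and counts of 1264, 503, 238 and 136 in HQ461 against 368, 247, 196 and 131 in DMSO. The 20 nearest other genes of each had a median of 0.46. FBXO2, FBXO44 and FBXO6, the other sugar-binding receptors, lie side by side on chromosome 1 and had values of 0.19, -0.60 and -0.02. Over the 5 sugar-binding genes the median was 0.19, with 1 higher and 0 lower.

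The receptors tied to iron, oxidative stress and mitochondria stayed inside the 2-fold limit, all 5 of them, with a median of -0.38. FBXL5, the iron sensor that marks IREB2, had -0.55 from 106, 118, 119 and 13.2 in HQ461 against 177, 151, 90.8 and 73.3 in DMSO, 1 sgRNA being far lower than the rest. FBXO7, a partner of the Parkinson's disease protein parkin, had the most even counts among them, with 168, 187, 103 and 60.0 in HQ461 against 239, 232, 103 and 60.0 in DMSO and a median of -0.16. FBXL17 and FBXO22, receptors of BACH1, had -0.38 and 0.14, and FBXL4, a brake on mitophagy, had -0.65. The largest distance between sgRNAs of 1 gene in this group was 2.86.

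The muscle receptors FBXO32 (atrogin), FBXO40 and FBXL22 had values of -0.07, -0.61 and -0.13. FBXL21, at -0.83, is annotated in GENCODE as a transcribed pseudogene, FBXL21P. FBXW5, a receptor of TSC2, had 0.19 from 263, 24.0, 107 and 30.0 in HQ461 against 250, 116, 54.1 and 24.2 in DMSO.

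The sgRNAs of an F-box gene often disagreed. The median distance between the highest and the lowest log2 ratio of a gene was 2.37, beside 2.14 over all genes. FBXO46 had the widest, 7.89: 7291, 167, 13.2 and 1.20 in HQ461, against 292, 119, 55.0 and 19.99 in DMSO. A single sgRNA of FBXO46 thus made up 6074 of the 52237 F-box counts in HQ461, while the gene's median was -0.75 and its summed counts gave 3.94. With only the sgRNAs of at least 30 normalized counts in DMSO the median turned to 0.48.

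After FBXO46 and FBXO31 the widest were FBXW8, FBXL16 and FBXO16. FBXW8, the receptor that pairs with CUL7, had 167, 80.4, 13.2 and 293 in HQ461 against 188, 154, 103 and 97.5 in DMSO, and a median of -0.55. FBXO16 had 466, 230.5, 52.8 and 705 in HQ461 against 359, 223, 108 and 75.0 in DMSO, and a median of 0.21. In both, 1 sgRNA was higher by more than 2-fold and another lower by more than 2-fold. For 17 F-box genes the median and the summed counts differed in sign, and the share over all genes is not given here. Summed counts also moved the median over all genes, from -0.02 to 0.22.

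This distance went with the level in DMSO. The 33 F-box genes with the lower median counts in DMSO (at most 124) had a median distance of 2.74 and held all 6 lower genes and 2 of the higher ones. The 34 with more counts (125 or more) had 1.74, with 0 lower and 4 higher. The part of the DMSO level in these counts was not tested, and the same split over all genes is not given here. DMSO counts were taken after 3 weeks of culture, and the labels name no starting pool. Library representation and growth therefore cannot be told apart in them.

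Related receptors were set side by side in 7 pairs of paralogs. In 5 pairs both genes stayed inside the 2-fold limit: BTRC at -0.66 and FBXW11 at -0.81, FBXO30 at -0.77 and FBXO40 at -0.61, FBXO34 at -0.40 and FBXO46 at -0.75, FBXO32 at -0.07 and FBXO25 at -0.90 and FBXO5 at 0.42 and FBXO43 at -0.54. In the other 2 pairs 1 gene passed it: FBXL20 at 1.26 beside FBXL2 at -0.28, and FBXO11 at -1.77 beside FBXO10 at -0.39.

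The other parts of the SCF ligase were taken as a list of 22 core subunits and regulators, drawn up with earlier results of these data known. The study names RBX1, GLMN, NAE1 and UBE2M, all on the list, among the top-ranking genes of this screen. The median of the list was 0.06. Of its genes 7 were higher (31.8%, beside 9.01% of all genes) and 0 lower (beside 7.69%). These 7 ranged from 2.27 to 8.43 and had every sgRNA above 0: RBX1, UBE2D3, CAND1, GLMN and the enzymes of the NEDD8 pathway NAE1, UBA3 and UBE2M, all of which also serve other cullins. NEDD8 (-0.30), DCUN1D1 (0.00) and COPS5 (-0.63), which serve all cullins as well, were not among them. Of the parts that define the SCF, CUL1 had 0.35, with sgRNAs from -1.09 to 2.81, and SKP1 had -0.41.

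Several genes of this list had few counts in DMSO, whether higher or not. The median normalized count per sgRNA in DMSO was 4.17 for UBA3, 6.25 for UBE2M and 20.4 for RBX1 among the higher genes, and 1.67 for COPS5, 10.4 for SKP1 and 11.7 for NEDD8 among the others, whereas CUL1 had 88.3. CDC34, an enzyme that extends ubiquitin chains on SCF substrates, had 0.07, and CKS1B, the cofactor of SKP2, had -0.14. CUL7 had -0.53 and its partner FBXW8, given above, -0.55. MYCBP2, the partner of FBXO45, had -0.64 with every sgRNA lower, and FBXO45 -0.33.

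Substrates and partners of F-box proteins were also in the library, as 34 genes with a median of -0.09, of which 1 was higher (2.94%, beside 9.01% of all genes) and 4 lower (11.8%, beside 7.69%). The higher one was WEE1, a kinase marked by BTRC and FBXW11, at 1.62, while their other substrates CTNNB1 (beta-catenin), NFKBIA and CDC25A stood at -0.26, 0.10 and -0.96. The lower ones were the FBXW7 substrate MCL1 at -1.65, the cyclin F substrate CCP110 at -1.56, FZR1 at -1.39 and the FBXL5 substrate IREB2 at -1.14. RRM2, the other substrate of cyclin F named above, had 0.33. In MCL1 and CCP110 every sgRNA was lower.

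Receptor and substrate values are set side by side here for the best known pairs, and no relation between them was tested. SKP2 had -1.08 and CDKN1B -0.20. FBXW7 had -2.37 beside CCNE1 at 0.42, MYC at 0.73, NOTCH1 at -0.98 and MCL1 at -1.65. FBXL5 had -0.55 and IREB2 -1.14, and FBXO11 had -1.77 beside BCL6 at 0.18 and DTL at -0.16.

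F-box proteins that the naming rule misses, 6 in the list used, had a median of 0.12. KDM2A, a histone demethylase with an F-box, was the only one past the limit, at 1.71, with sgRNAs from -3.34 to 4.17. That 1 gene is 16.7% of the list, beside 9.01% of all genes. KDM2A lies on chromosome 11, where the genes outside the naming rule had a median of 0.29. The others of the list ran from -0.33 to 0.36.

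Receptors of other cullins gave a measure for comparison. The 37 KLHL genes, receptors of CUL3, had a median of -0.04 with 2 higher and 2 lower, the 18 DCAF genes, receptors of CUL4, had -0.31 with 0 higher and 1 lower, and the 25 ASB and SOCS genes, receptors of CUL2 and CUL5, had 0.11 with 2 higher and 1 lower. The shares below the limit were 5.41%, 5.56% and 4.00% in these 3 families, beside 8.96% of the F-box genes. Low sgRNAs were 5.41%, 8.33% and 5.00%, beside 11.9% in the F-box genes. These differences were not tested.

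**Figure D4:**
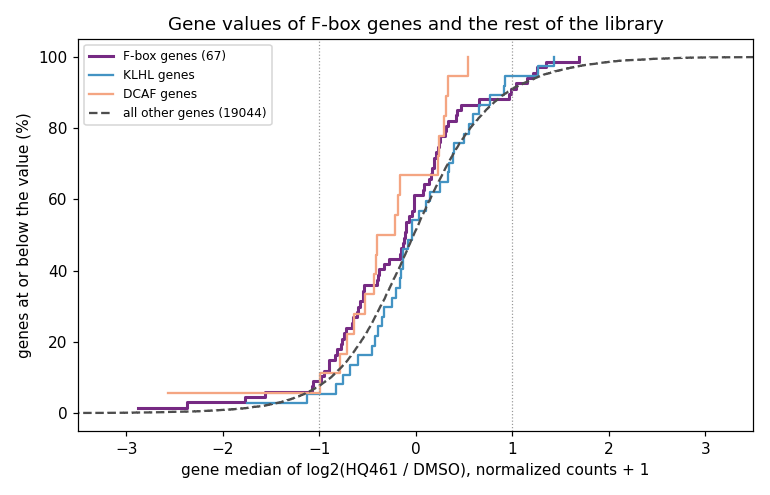
Share of genes (vertical axis, %) at or below each gene value (horizontal axis, log2 HQ461 over DMSO) for the 67 F-box genes, the KLHL genes, the DCAF genes and all other genes, with dotted lines at a 2-fold change. The F-box curve runs to the left of that of the other genes below 0 (median -0.11 against -0.02) and close to it above 1.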

How the data were processed

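The sgRNA counts were deposited by the authors, who made them with MAGeCK 0.5.9.2 per the labels. They are not normalized, and all table columns of counts were used. The sources used here do not say how 2 replicates became 1 column.

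Counts were analysed in Python 3.11.15 (numpy 2.4.6, pandas 2.3.3, scipy 1.17.1, matplotlib 3.10.9). Size factors were medians of ratios, and 273 of 77441 sgRNAs, without a count in either column, were left out, none of them of an F-box gene. The pseudocount was 1. The script was tested on simulated data. Positions came from GENCODE 44 on GRCh38, where 65 F-box genes matched by symbol and 2 by an older symbol (FBXO18 as FBH1, FBXL21 as FBXL21P), and 395 genes of the library were not placed. Neighbours were 10 genes on each side. TMM factors came from edgeR 4.0.16. Tests planned for separate replicates were not run.

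Members, lists and alternatives were chosen with earlier results of these data known. Named in full were the 8 highest and 8 lowest genes, those past the 2-fold limit with every sgRNA on 1 side, the 5 widest, 10 well-known receptors and those of chromosome 17. Values of 2 genes are not reported here: 1 F-box gene, which counts only in totals over the F-box genes and their subfamilies, and 1 gene left out of the substrate list. FBXO27 and the substrates with values were named after theirs were seen.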

Additional observations from a re-analysis of the deposited data

How the results depend on the processing

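FBXO42 and FBXW7 stayed past the 2-fold limit in all 12 alternatives, FBXO38 and FBXL18 in 11 of 12. Scaling by total counts gave 1 F-box gene higher, 28 lower and a median of -0.79, with 1 gene having every sgRNA above 0 and 21 every sgRNA below. It moved all genes. Summed counts in place of the median sgRNA gave 14 higher (20.9%, beside 18.1% of all genes) and a median of 0.21 (0.22 over all genes). Without the most enriched sgRNA of each gene 3 were higher (4.48%, beside 5.21% of all genes) and 18 lower (26.9%, beside 17.4%), the median was -0.49 and 26 had every sgRNA below 0. Without the most depleted sgRNA 13 were higher (19.4%, beside 18.2% of all genes) and 2 lower (2.99%, beside 3.84%), the median was 0.17 and 17 had every sgRNA above 0. Dropping an extreme sgRNA shifts each gene by construction. For genes with every sgRNA on 1 side, the share over all genes under the alternatives is not given here. Those counts are therefore not read as a result about F-box genes. Without chromosome 17 and the proximal long arm of chromosome 11, 4 had every sgRNA above 0, since 3 of the 7 lie there. FBXO31 turned to 1.73 with summed counts and to 0.34 without its most depleted sgRNA. With a minimum of 30 normalized counts in DMSO, FBXO11 (-0.65) and FBXO17 (0.90) no longer passed the limit, FBXW11 (-2.29) and FBXO5 (1.35) passed it, and FBXO46 turned to 0.48. FBXO24 was at 0.88 as a mean over sgRNAs, and FBXL6 and FBXO39 were at 0.79 and 0.54 without their most enriched sgRNA. TMM, scaling to controls, other pseudocounts, no filter, the minimum of 30 and means over sgRNAs left the counts of higher and lower genes within 1.5 times of those given. No paired analysis was possible because each treatment has a single column, and leaving out a replicate was not run for the same reason. In DMSO 11 F-box sgRNAs (4.10%, beside 8.11% of all targeting sgRNAs) had under 30 normalized counts, which limits the genes they target.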
